A study of Mus musculus with 20 samples.

Results

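Divergent promoter pairs are neighboring protein-coding genes that are read away from each other from starts that lie close together. A pair was taken when a minus-strand gene lay to the left of a plus-strand gene, both autosomal and protein-coding in GENCODE release 21 on GRCm38 (mm10), with starts at most 1000 bp apart and no overlap. This gave 734 pairs with 1448 genes, 6.96% of the 20807 autosomal protein-coding genes, at 714 non-overlapping loci, and 40 of the pairs share a gene with another pair. The rule used only the annotation and no measured value, but it was set with earlier results of these data known. The window of a pair ran from 500 bp left of the first start to 500 bp right of the second. The other 19359 genes, called single promoters here, were measured within 500 bp of their start.

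ChIP-Seq of H3K27ac, H3K4me1, and H3K4me3 was performed with Lin- bone marrow cells, the cells left after cells with markers of mature blood lineages are removed. The WT mice carried *Ep300 fl/fl* without Cre, *Ep300Δ/Δ* mice carried *Mx1-Cre;Ep300 fl/fl*, *Tet2-/-* mice carried *Ep300 fl/fl;Tet2-/-*, and *Ep300Δ/ΔTet2-/-* mice carried *Mx1-Cre;Ep300 fl/fl;Tet2-/-*. All 4 genotypes received poly(I:C), so the controls share the floxed *Ep300* alleles and the injections. Mice were 6 to 8 weeks old at the injections, and experiments followed 2 weeks later unless another time was given. The number of mice behind a library is not given in the sources used here. *Mx1-Cre* is induced by interferon and also acts in cells outside the blood, whereas *Tet2* is absent from the germ line onward. *Ep300* encodes the acetyltransferase p300, one of the enzymes that deposit H3K27ac, and *Tet2* encodes an enzyme that oxidizes methylated cytosine.

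Each genotype and mark has 1 library, so there is no spread between mice, no difference between genotypes was tested, and every comparison is between peak lists. The 12 lists held 18327 to 29659 H3K27ac peaks, 90738 to 107392 H3K4me1 peaks, and 25012 to 27807 H3K4me3 peaks, and the depth of the libraries is unknown. The shortest H3K27ac list was that of *Ep300Δ/ΔTet2-/-* cells. The Lin- label was checked by marker genes. H3K27ac lay at the start of 7 of 8 progenitor genes in all 4 lists, at 1 to 2 of 8 genes of mature blood cells, and at 0 of 8 genes of other tissues. A window held a mark when a peak overlapped it by at least 1 bp. The 95% intervals beside shares are exact (Clopper-Pearson) and reflect only how many windows were counted.

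Most mammalian promoters of this kind lie in CpG islands, stretches of DNA in which CpG dinucleotides were not lost through methylation. RNA polymerase II starts in both directions from a shared nucleosome-poor stretch, and each gene has its own first nucleosomes downstream of its start. H3K4me3 marks the nucleosomes around active and poised starts, H3K27ac those of active promoters and enhancers, and H3K4me1 enhancers and the outer shoulders of promoters. Genes of housekeeping functions such as DNA repair and mitochondrial translation are often arranged in this way.

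The spans between the starts of 7 pairs described below are shown to give their sequence. The peak calls do not use it. *Utp18/Mbtd1* was among the 3 pairs with the highest WT H3K27ac fold, *Mrps12/Sars2* and *Wrap53/Trp53* are textbook pairs acetylated in every list, *Chpf/Tmem198* and *Smpd2/Ppil6* had H3K27ac only where *Ep300* was intact, and *Acvr1/Upp2* and *Nt5c3b/Klhl10* had H3K4me3 in the window without H3K27ac. The letters are the plus strand of GRCm38 from RefSeq, read 5′ to 3′ from the base after the minus-strand start to the base before the plus-strand start. Capitals mark matches, on either strand, to the motif letters searched: CCGGAAGT for ETS factors, CCAAT for NFY, GGGCGG for SP and KLF factors, TGACGTCA for CREB, TATAAA for the TATA box, GCGCA and GCGC separated by 1 base for NRF1, TCTCG followed directly by its reverse complement for ZBTB33, and a longer YY1 consensus given by name alone. None of the 7 spans matched the last 3 of these.
Utp18/Mbtd1 (chr11:93885767-93885851): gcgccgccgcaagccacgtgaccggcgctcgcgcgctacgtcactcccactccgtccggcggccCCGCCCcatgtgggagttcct
Mrps12/Sars2 (chr7:28741821-28741991): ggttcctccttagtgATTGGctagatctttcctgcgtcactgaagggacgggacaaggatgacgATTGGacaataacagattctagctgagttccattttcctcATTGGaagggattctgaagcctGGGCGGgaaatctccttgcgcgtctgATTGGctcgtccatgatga
Wrap53/Trp53 (chr11:69580256-69580358): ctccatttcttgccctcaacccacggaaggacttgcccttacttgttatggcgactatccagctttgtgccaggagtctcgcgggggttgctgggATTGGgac
Chpf/Tmem198 (chr1:75479308-75479531): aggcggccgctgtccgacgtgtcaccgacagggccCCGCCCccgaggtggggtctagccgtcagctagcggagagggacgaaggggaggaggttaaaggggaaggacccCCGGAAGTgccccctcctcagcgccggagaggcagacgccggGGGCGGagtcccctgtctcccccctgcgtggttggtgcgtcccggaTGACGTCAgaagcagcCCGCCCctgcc
Smpd2/Ppil6 (chr10:41490370-41490438): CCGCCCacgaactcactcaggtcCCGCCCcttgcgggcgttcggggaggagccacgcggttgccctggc
Acvr1/Upp2 (chr2:58567158-58567297): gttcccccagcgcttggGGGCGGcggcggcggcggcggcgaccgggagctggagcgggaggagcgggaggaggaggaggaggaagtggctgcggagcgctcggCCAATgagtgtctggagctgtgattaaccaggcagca
Nt5c3b/Klhl10 (chr11:100441809-100441916): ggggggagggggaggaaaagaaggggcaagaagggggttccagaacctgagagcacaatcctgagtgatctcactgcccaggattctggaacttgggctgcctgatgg
The spans differed in CpG content. That of *Acvr1/Upp2*, 140 bp long, held 14 CpG dinucleotides and that of *Chpf/Tmem198* held 21 in 224 bp. *Nt5c3b/Klhl10* had 0 CpG dinucleotides and no motif match in 108 bp. *Mrps12/Sars2* held matches to CCAAT, written ATTGG on this strand, and 1 to GGGCGG, 5 in all over 171 bp.

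The starts of a pair lay a median of 128 bp apart, with quartiles of 66.25 and 240 bp and a range from 1 to 987 bp. In 602 pairs (82.0%) the distance was 300 bp or less. A promoter was called CpG-rich when the sequence from 250 bp before to 50 bp after its start had a GC content of at least 50% and an observed-to-expected CpG ratio of at least 0.6. By this measure 1194 genes in pairs (82.5%) and 39.5% of single promoters were CpG-rich, and in 561 pairs both genes were. In 300 bp around the midpoint of the pairs, the ETS letters were found in 13.2% (10.8% to 15.9%), against 4.16% of single promoters and 8.07% of the 7644 CpG-rich ones, and the NRF1 letters in 17.4% (14.8% to 20.4%), against 5.35% and 12.2%. For the YY1 letters the shares were 3.41%, 1.01%, and 2.13%, for the ZBTB33 letters 2.45%, 0.491%, and 1.14%, and for the CREB letters 4.50%, 2.26%, and 4.03%. CCAAT was in 44.6% of pairs, 38.2% of single promoters, and 36.5% of CpG-rich ones. GGGCGG was found in 67.8% of pairs and 41.8% of single promoters, but in 75.8% of CpG-rich pairs and 75.9% of CpG-rich single promoters. The letters TATAAA were in 4.50% of pairs and 13.4% of single promoters, and in 2.14% (1.11% to 3.71%) and 5.23% of the CpG-rich ones. A match to letters is a description of sequence and not a bound site.

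In every genotype most pairs held H3K27ac and H3K4me3, and a minority held H3K4me1. H3K27ac was found in 652 pairs in WT (88.8%; interval, 86.3% to 91.0%), 650 in *Ep300Δ/Δ* (88.6%; 86.0% to 90.8%), 650 in *Tet2-/-* (88.6%; 86.0% to 90.8%), and 619 in *Ep300Δ/ΔTet2-/-* cells (84.3%; 81.5% to 86.9%). The share among all promoter windows, pairs and single promoters together, was 40.2%, 38.0%, 39.1%, and 36.1% in the same order. H3K4me3 was found in 699, 701, 700, and 700 pairs (95.2% to 95.5%), against 55.3%, 56.6%, 55.6%, and 55.9% of all promoter windows. H3K4me1 was found in 342 (46.6%; 42.9% to 50.3%), 355 (48.4%; 44.7% to 52.0%), 277 (37.7%; 34.2% to 41.4%), and 324 pairs (44.1%; 40.5% to 47.8%), against 38.4%, 39.5%, 34.9%, and 39.6%. The lowest H3K4me1 share was that of *Tet2-/-* cells. It stayed the lowest with lists of equal size (42.1%, 48.4%, 37.1%, and 43.6%), with at least 200 bp under peaks, and only between the starts, but not under a stricter threshold. With only peaks of −log10 *q* of at least 5, it was 33.8% in both WT and *Tet2-/-* cells, 27.8% in *Ep300Δ/Δ*, and 30.8% in *Ep300Δ/ΔTet2-/-* cells. Single promoters then stood at 26.8% in WT, 22.3% in *Ep300Δ/Δ*, 28.4% in *Tet2-/-*, and 26.9% in *Ep300Δ/ΔTet2-/-* cells.

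The comparison was then limited to CpG-rich promoters, 561 pairs against 7644 single promoters. H3K27ac lay at 93.9% of these pairs in WT cells (91.6% to 95.8%) and at 66.4% of the single promoters (65.3% to 67.5%), and in *Ep300Δ/ΔTet2-/-* cells at 89.8% and 59.9%. H3K4me3 lay at 98.9% of the pairs in each of the 4 lists and at 88.3% to 90.8% of the single promoters. For H3K4me1 the order of the classes turned. In windows of their full length, all pairs stood above all single promoters, 46.6% against 38.1% in WT cells. With at least 200 bp under peaks, pairs stood below single promoters in every list but that of *Ep300Δ/Δ* cells. Pair windows are longer, and within 500 bp of each start the difference was 3.45 percentage points in WT, 3.68 in *Ep300Δ/Δ*, -1.59 in *Tet2-/-*, and 0.0205 in *Ep300Δ/ΔTet2-/-* cells. CpG-rich pairs stood below CpG-rich single promoters in all 4 lists, at 45.5% against 53.7% in WT, 47.4% against 56.6% in *Ep300Δ/Δ*, 36.7% against 46.7% in *Tet2-/-*, and 42.4% against 55.8% in *Ep300Δ/ΔTet2-/-* cells. With 1 library per list these intervals cover the number of windows only.

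**Figure D1:**
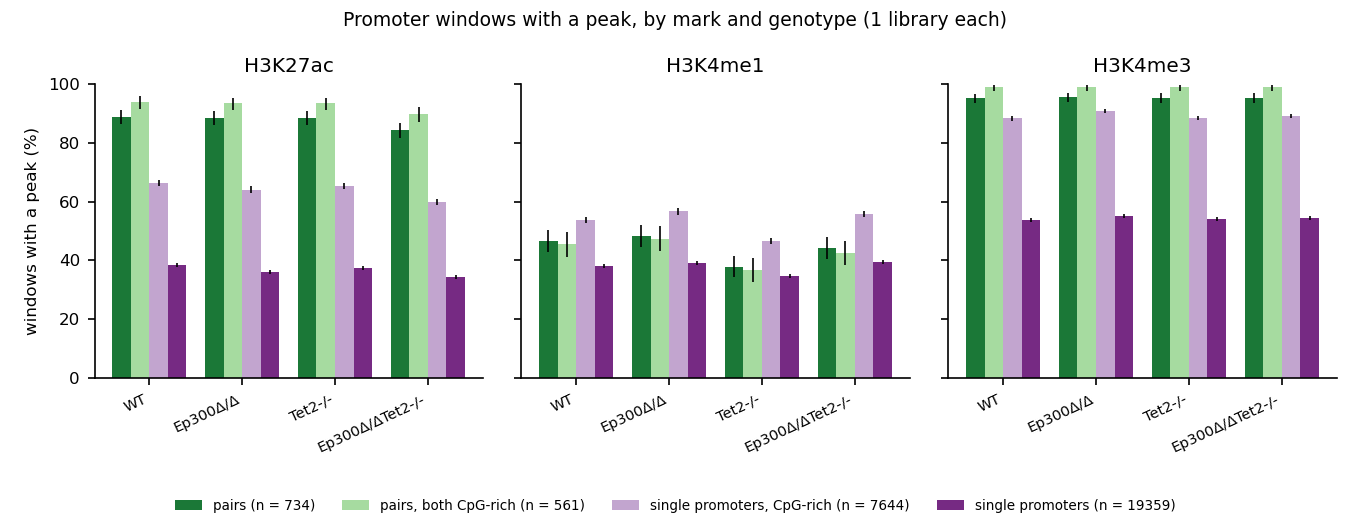
Share of promoter windows with a peak (%, y axis) for each mark (panels) and genotype (x axis, 1 library each), as bars for all pairs, CpG-rich pairs, CpG-rich single promoters, and all single promoters, with exact 95% intervals. H3K27ac pair bars reach 84.3% to 88.8%, and CpG-rich pairs are below CpG-rich single promoters for H3K4me1 only.

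The calls of a pair were mostly the same in the 4 genotypes for H3K27ac and H3K4me3. H3K27ac was called in all 4 lists at 607 pairs (82.7%), in none at 68 (9.26%), and in some at 59. Of single promoters, 31.3% were called in all 4 and 58.7% in none. The most frequent pattern among the 59 was a missing call in *Ep300Δ/ΔTet2-/-* cells alone, at 27 pairs (3.68%). It was also the most frequent such pattern of single promoters (2.40%). A call in WT alone followed with 6 pairs (0.817%; single promoters, 1.46%), as did calls in *Ep300Δ/Δ* and *Tet2-/-* cells alone with 6 pairs (single promoters, 0.222%). H3K4me3 was called in all 4 lists at 699 pairs (95.2%) and 51.9% of single promoters. H3K4me1 was called in all 4 at 184 pairs (25.1%), close to the 24.5% of single promoters, and in none at 278 (37.9%; single promoters, 49.4%). Combining the marks, 242 pairs (33.0%) had H3K27ac and H3K4me3 in all 4 lists and H3K4me1 in none, 124 had each mark in all 4, and 29 had no peak of any mark.

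H3K4me1 in the window went with the H3K27ac pattern of the pair. Among the 607 pairs with H3K27ac in all 4 lists, H3K4me1 was called at 42.5% in WT (38.5% to 46.5%), 45.3% in *Ep300Δ/Δ*, 33.6% in *Tet2-/-*, and 40.4% in *Ep300Δ/ΔTet2-/-* cells. In 33 pairs with H3K4me3 in all 4 lists and H3K27ac in none, the shares were 87.9% (71.8% to 96.6%), 90.9%, 87.9%, and 100% (89.4% to 100%). The 59 pairs with H3K27ac in some lists stood between, at 84.7%, 81.4%, 69.5%, and 74.6%.

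The study examined H3K27ac after loss of p300 in *Tet2*-null Lin- cells, and the same deletion on the WT background is given beside it. Over the whole window few pairs lost the call, but between the starts many did. From WT to *Ep300Δ/Δ* cells, 13 of 652 pairs lost the H3K27ac call (1.99%; 1.07% to 3.39%), against 8.70% of all promoter windows, and 11 gained one, 13.4% of the 82 pairs without a call and 2.24% of all such windows. From *Tet2-/-* to *Ep300Δ/ΔTet2-/-* cells, 38 of 650 pairs lost it (5.85%; 4.17% to 7.94%), against 11.5% of all windows, and 7 gained one (8.33% of 84 pairs, against 2.40%). CpG-rich pairs lost 1.90% and 4.58% of their calls in these comparisons, and CpG-rich single promoters 6.44% and 10.8%. Taken gene by gene, within 500 bp of each start, genes in pairs lost 2.36% (1.60% to 3.36%) and 5.76% (4.54% to 7.19%). The windows of both genes of a pair overlap and are not independent, so these intervals are too narrow. The loss was smaller on the WT background with lists cut to equal size too, 17 of 628 pairs (2.71%) against 28 of 634 (4.42%; all windows, 6.54% and 9.02%), and with at least 200 bp under peaks, 4.01% against 6.18% (all windows, 11.1% and 13.04%). A stricter threshold turned the order. In the *Ep300Δ/Δ* list 7.17% of peaks had a *q* above 0.05, more than in the other H3K27ac lists. With only peaks of −log10 *q* of at least 5, 7.79% of pairs lost the call from WT to *Ep300Δ/Δ* cells and 6.73% from *Tet2-/-* to *Ep300Δ/ΔTet2-/-* cells. The order turned in the same way over all promoter windows, with 15.5% and 13.2%. Taken only between the starts, 133 of 469 pairs lost the call from WT to *Ep300Δ/Δ* cells (28.4%) and 82 of 467 from *Tet2-/-* to *Ep300Δ/ΔTet2-/-* cells (17.6%), so the order of the backgrounds turned. Single promoters within 100 bp of the start lost 16.9% and 18.9%, but these windows have a fixed length, whereas the spans between starts do not. At a single position, the midpoint of pairs and the start of CpG-rich single promoters, H3K27ac covered 39.4% and 31.02% in WT, 26.6% and 20.7% in *Ep300Δ/Δ*, 41.7% and 30.1% in *Tet2-/-*, and 37.5% and 26.2% in *Ep300Δ/ΔTet2-/-* cells, so after *Ep300* deletion the share was lower in both classes. Gains between the starts were 6 of 265 pairs (2.26%; all windows, 1.58%) and 29 of 267 (10.9%; all windows, 2.43%).

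Gain shares here and below are of the windows without a call in the first list. *Tet2* loss went with H3K27ac losses of 13 of 652 pairs (1.99%; all windows, 6.89%) and gains of 11 of 82 (13.4%; all windows, 2.90%) when *Ep300* was intact. It went with losses of 36 of 650 (5.54%; 3.91% to 7.59%; all windows, 9.80%) and gains of 5 of 84 (5.95%; all windows, 2.89%) when *Ep300* was deleted. The balance of this last comparison turned with the processing. With −log10 *q* of at least 5 it had 21 losses of 596 (3.52%; all windows, 7.09%) and 29 gains (all windows, 5.31%), and gains outnumbered losses over all windows too, 715 to 469. Between the starts it had 28 losses of 342 (8.19%; all windows, 14.3%) and 100 gains of 392 (25.5%; all windows, 4.43%), whereas over all windows losses outnumbered gains there, 798 to 643. The H3K27ac comparisons share lists, so their counts are not independent.

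Lost calls lay lower in their list than kept ones, though not all of them were weak. Peaks were ranked by the authors' fold enrichment over the H3 library, from 0 to 100 within each list, and each window was given its strongest peak. The 13 pairs lost from WT to *Ep300Δ/Δ* cells had a median WT fold of 5.64 (3.56 to 7.61), against 17.0 for the 639 pairs that kept the call. The 38 pairs lost from *Tet2-/-* to *Ep300Δ/ΔTet2-/-* cells had a median rank of 38.1 in the *Tet2-/-* list, against 84.8 for the 612 kept pairs. They reached up to rank 78.7 and a fold of 12.4. In the strongest 25% of the WT list, 0 of 480 pairs lost the call in *Ep300Δ/Δ* cells (upper limit of the interval, 0.766%). The *Tet2-/-* list gave 1 of 435 in that band (0.230%; 0.00582% to 1.27%). Single promoters of the strongest 25% lost 0.857% and 1.16%, and CpG-rich ones 0.385% and 1.08%. From WT to *Ep300Δ/Δ* cells, the losses were 3 of 16 pairs up to rank 25 (18.8%; 4.05% to 45.6%), 8 of 40 at ranks 25 to 50 (interval, 9.05% to 35.6%), and 2 of 116 at ranks 50 to 75 (1.72%; 0.209% to 6.09%), beside 47.4%, 29.0%, and 8.45% of single promoters. From *Tet2-/-* to *Ep300Δ/ΔTet2-/-* cells they were 13 of 23 (56.5%; 34.5% to 76.8%), 11 of 49 (22.4%; 11.8% to 36.6%), and 13 of 143 (9.09%; 4.93% to 15.04%), beside 47.7%, 31.3%, and 11.2%. In the weakest band on the *Tet2*-null background the share of pairs was thus the higher one, with an interval that holds the value of single promoters. Of the pairs with a WT call, 73.6% were in the strongest 25%, against 56.6% of single promoters. Every one of the 13 and the 38 pairs had H3K4me3 in all 4 lists, as did all 639 and 612 pairs that kept the call.

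**Figure D2:**
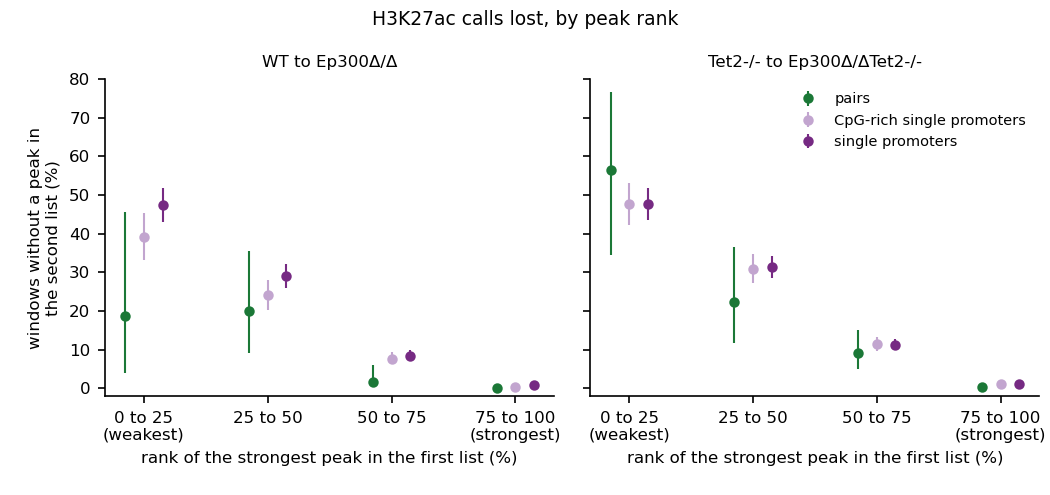
Share of windows with an H3K27ac call in the first list and none in the second (%, y axis), by the rank of the strongest peak in the first list (x axis), for WT to *Ep300Δ/Δ* (left) and *Tet2-/-* to *Ep300Δ/ΔTet2-/-* cells (right), with exact 95% intervals. Above rank 75, 0 of 480 and 1 of 435 pairs lost the call, and up to rank 25 the 16 and 23 pairs have wide intervals.

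H3K4me3 calls hardly moved. Few of the calls at pairs were weak. In the WT list 5 pairs ranked up to 25 and 15 at ranks 25 to 50. These bands held 96 and 48 of the 158 calls that single promoters lost in *Ep300Δ/Δ* cells. Among CpG-rich promoters, 0 of 555 pairs lost the call in each comparison below, beside 0.252% to 2.78% of single promoters. No pair of 699 lost the call from WT to *Ep300Δ/Δ* cells (upper limit, 0.526%; all windows, 1.42%), and 2 of 35 gained it (5.71%; all windows, 4.70%). From *Tet2-/-* to *Ep300Δ/ΔTet2-/-* cells 0 of 700 lost it (all windows, 1.74%) and 0 of 34 gained it (all windows, 2.73%). *Tet2* loss went with 0 losses of 699 and 1 gain of 35 (2.86%) in the presence of *Ep300* (all windows, 1.68% and 2.85%). In its absence it went with 1 loss of 701 and 0 gains of 33 (all windows, 3.02% and 2.26%).

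H3K4me1 calls turned over more, and in both directions. From WT to *Ep300Δ/Δ* cells 63 of 342 pairs lost the call (18.4%; 14.5% to 22.9%; all windows, 16.9%) and 76 gained one (19.4% of 392 pairs; all windows, 12.4%). From *Tet2-/-* to *Ep300Δ/ΔTet2-/-* cells 49 of 277 lost it (17.7%; 13.4% to 22.7%; all windows, 14.7%) and 96 of 457 gained one (all windows, 15.1%). *Tet2* loss went with 114 losses of 342 (33.3%; 28.4% to 38.6%; all windows, 23.8%) and 49 gains of 392 (12.5%; all windows, 9.12%) in the presence of *Ep300*. In its absence there were 84 losses of 355 (23.7%; 19.3% to 28.4%; all windows, 17.3%) and 53 gains of 379 (14.0%; all windows, 11.4%). Among CpG-rich promoters, pairs gained H3K4me1 less often than single promoters in each of these 4 comparisons, at 19.9% against 25.6%, 19.7% against 30.5%, 12.4% against 16.9%, and 14.6% against 23.3%. CpG-rich pairs also lost it more often in each, at 19.6% against 16.6%, 18.4% against 15.2%, 34.1% against 27.8%, and 26.7% against 19.2%. For gains, the intervals of the classes overlapped from WT to *Ep300Δ/Δ* and from WT to *Tet2-/-* cells. For losses, they overlapped in every comparison except that of *Ep300Δ/Δ* with *Ep300Δ/ΔTet2-/-* cells. Strong calls were lost too, since 15 of 91 pairs (16.5%; 9.53% to 25.7%) in the strongest 25% of the WT list had no H3K4me1 in *Tet2-/-* cells, beside 10.8% of single promoters and 14.7% of CpG-rich ones. In 57.0% of called WT pairs the strongest H3K4me1 peak had its summit outside the window, so a rank can be that of a peak centered beside it. The balance of losses and gains depended on weak peaks. With −log10 *q* of at least 5, 100 of 248 pairs lost H3K4me1 from WT to *Ep300Δ/Δ* cells (40.3%; all windows, 37.0%) and 56 gained it (11.5%; all windows, 7.52%). From *Tet2-/-* to *Ep300Δ/ΔTet2-/-* cells 84 of 248 lost it (33.9%; all windows, 29.4%) and 62 gained it (12.8%; all windows, 9.53%). Losses then outnumbered gains, at pairs and over all windows. From WT to *Tet2-/-* cells there were then 73 losses (29.4%; all windows, 25.1%) and 73 gains (all windows, 11.5%), and from *Ep300Δ/Δ* to *Ep300Δ/ΔTet2-/-* cells 63 losses of 204 (30.9%; all windows, 24.3%) and 85 gains (all windows, 12.8%). Losses and gains together came to 146 to 156 pairs in the 4 comparisons, beside 137 to 163 with all peaks.

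Within the pairs, the 3 marks were arranged around the starts in different ways. One H3K4me3 peak reached over both starts in 87.3% of called pairs in WT, 87.7% in *Ep300Δ/Δ*, 83.3% in *Tet2-/-*, and 85.4% in *Ep300Δ/ΔTet2-/-* cells. For H3K27ac this was so in 33.0%, 17.2%, 33.8%, and 32.0%, and for H3K4me1 in 3.10% to 3.80%. The strongest peak of each mark seldom had its summit between the starts, a span with a median of only 128 bp. This was so in 6.92% to 7.52% of called pairs for H3K27ac, 4.23% to 5.25% for H3K4me1, and 1.71% to 2.57% for H3K4me3. For H3K27ac the summit lay outside the window in 4.29% to 6.79%. For H3K4me1 the strongest peak had its summit outside the window in 49.4% to 58.8% of called pairs, and for H3K4me3 in 10.4% to 13.1%. Position by position, H3K27ac covered 39.4% of WT pairs at the midpoint, 74.1% at 300 bp to the left, and 72.9% at 250 bp to the right. In *Ep300Δ/Δ* cells these flanking maxima were 68.3% and 66.3% and the midpoint was 26.6%, and in *Ep300Δ/ΔTet2-/-* cells they were 63.9% and 62.4% with 37.5% at the midpoint. *Tet2-/-* cells had 72.2%, 71.5%, and 41.7%. CpG-rich single promoters were lopsided instead, with 41.2% in WT cells upstream and 52.8% downstream of the start.

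H3K4me1 formed the outer ring. It covered 4.36% of WT pairs at the midpoint and was highest at 900 bp to the left (32.4%) and 950 bp to the right (33.2%), beyond the edge of most windows. The maxima lay 900 to 1200 bp away in all 4 lists and reached 31.1% to 36.0%. CpG-rich single promoters in WT cells had their upstream maximum closer, at 450 bp (29.7%), and the downstream one at 850 bp (32.6%). Of the 392 WT pairs without H3K4me1 in the window, 316 (80.6%) had a peak between the edge of the window and 3000 bp from the nearer start, and 139 (35.5%) had one on both sides. H3K4me3 covered 87.7% of WT pairs at the midpoint, and its maximum was 92.4%.

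**Figure D3:**
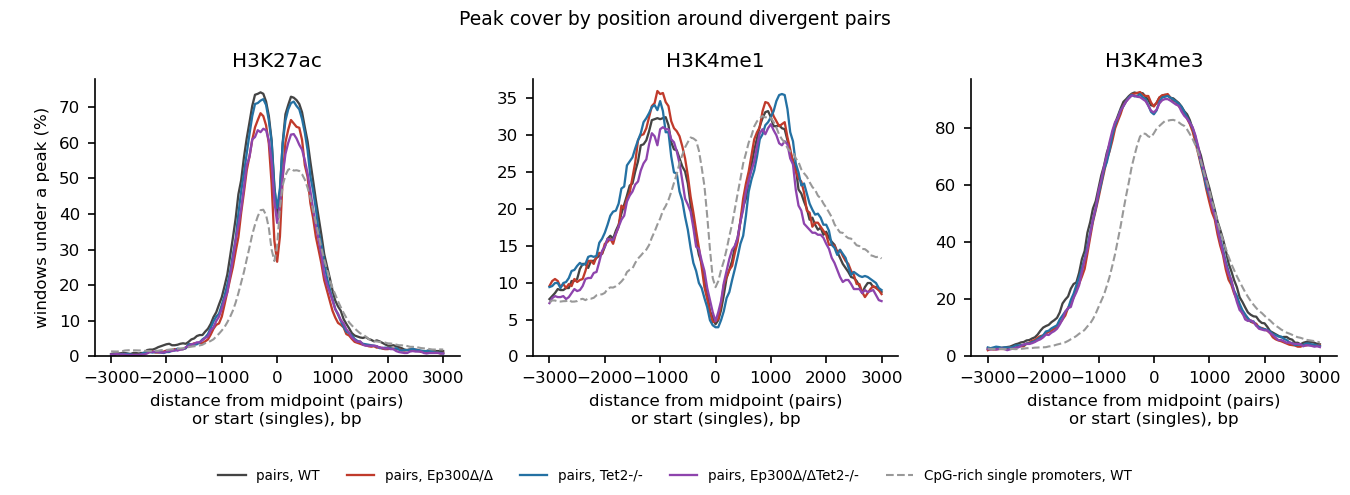
Share of pairs under a peak (%, y axis) by distance from the midpoint of the pair (bp, x axis) in each genotype (colored lines), with CpG-rich single promoters in WT cells by distance from the start, gene to the right (dashed line), for the 3 marks. H3K27ac has maxima on both sides of the midpoint, 74.1% and 72.9% in WT cells, and H3K4me1 lies farther out with 4.36% at the midpoint.

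The width of the H3K27ac domain differed between the lists at pairs that kept the call. In the 607 pairs called in all 4 lists, H3K27ac peaks covered a median of 81.8% of the window in WT, 70.9% in *Ep300Δ/Δ*, 80.1% in *Tet2-/-*, and 72.5% in *Ep300Δ/ΔTet2-/-* cells. The window was less covered in *Ep300Δ/Δ* than in WT cells at 491 pairs (80.9%) and more covered at 79. On the *Tet2*-null background it was less covered at 365 pairs (60.1%) and more covered at 197. Single promoters called in all 4 lists behaved in a like way, with less cover at 79.3% and 58.2%. The number of these pairs with 1 peak over both starts went from 206 in WT to 110 in *Ep300Δ/Δ* cells and from 214 in *Tet2-/-* to 197 in *Ep300Δ/ΔTet2-/-* cells. The strongest peaks in called pairs had a median width of 817 bp in WT, 594.5 bp in *Ep300Δ/Δ*, 745 bp in *Tet2-/-*, and 723 bp in *Ep300Δ/ΔTet2-/-* cells, and over whole lists the medians were 497, 402, 490, and 535 bp. The part of library depth in these widths was not tested.

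**Figure D4:**
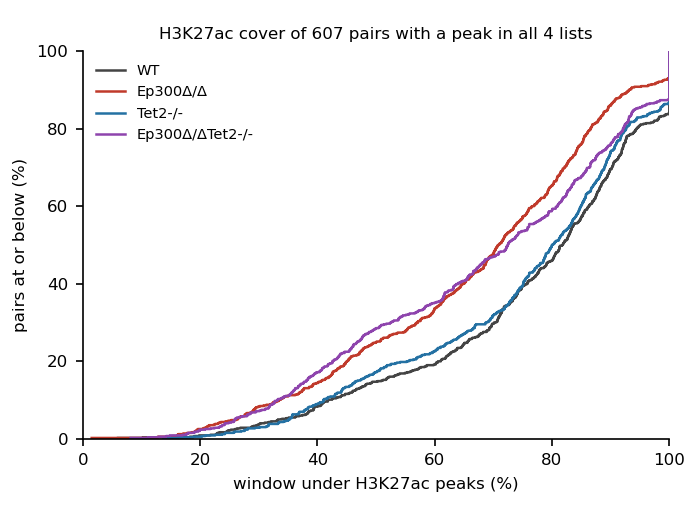
Cumulative share of the 607 pairs with H3K27ac in all 4 lists (%, y axis) by the share of the window under H3K27ac peaks (%, x axis), 1 line per genotype. The lines of *Ep300Δ/Δ* and *Ep300Δ/ΔTet2-/-* cells (medians, 70.9% and 72.5%) lie to the left of those of WT and *Tet2-/-* cells (81.8% and 80.1%) over most of the range.

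A peak of a given width spans close starts more easily than distant ones, and pairs were therefore also described by the distance between their starts. One WT peak covered both starts in 60 of 120 called pairs with starts up to 50 bp apart, 35.0% at 51 to 100 bp, 28.7% at 101 to 200 bp, 24.0% at 201 to 400 bp, and 26.1% at 401 to 1000 bp. From the closest to the most distant pairs the share went from 26.1% to 10.4% in *Ep300Δ/Δ*, 45.8% to 23.2% in *Tet2-/-*, and 39.3% to 20.6% in *Ep300Δ/ΔTet2-/-* cells, where it was 39.6% at 51 to 100 bp and so did not fall from the closest pairs to the next. H3K27ac itself was called in WT cells at 96.0% (90.9% to 98.7%) of the 125 closest pairs and 78.4% of the 88 most distant. CpG content moved with the distance, since both genes were CpG-rich in 87.2% of the closest pairs and in 35.2% of the most distant ones. H3K4me1 was called in WT cells at 45.6% of the closest and 62.5% of the most distant pairs, whose windows are longer, and at 42.4% and 47.7% in a window of 1001 bp around the midpoint.

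Gene groups differed in how often they were in pairs. Of 116 genes of DNA repair and replication, 34 (29.3%) were in pairs, and of 44 subunits of respiratory complex I, which passes electrons from NADH to ubiquinone, 12 were (27.3%). Of 78 proteins of the mitochondrial ribosome 18 were in pairs (23.1%), of 81 chaperones 16 (19.8%), of 49 proteasome subunits 7 (14.3%), of 38 aminoacyl-tRNA synthetases 5 (13.2%), and of 385 zinc finger proteins 20 (5.19%), against 6.96% of all genes. None of 79 transcription and signaling regulators of blood cells was in a pair. H3K27ac was called in all 4 lists at 18 of 18 pairs with a mitochondrial ribosome gene, 12 of 12 with a complex I gene, 7 of 7 with a proteasome gene, 5 of 5 with a synthetase gene, 30 of 34 with a DNA repair or replication gene, 12 of 15 with a chaperone gene, and 15 of 18 with a zinc finger gene, beside 82.7% of all pairs. For the DNA repair and replication genes the counts per list were 33, 33, 32, and 31 of 34 pairs in WT, *Ep300Δ/Δ*, *Tet2-/-*, and *Ep300Δ/ΔTet2-/-* cells, beside 88.8%, 88.6%, 88.6%, and 84.3% of all pairs. H3K4me1 was called at 13, 16, 11, and 16 of these 34 pairs, beside 46.6%, 48.4%, 37.7%, and 44.1% of all pairs.

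Of 28 genes listed for textbook divergent pairs, 12 (42.9%) were in pairs by the rule used here, in 6 pairs. All 6 had H3K27ac and H3K4me3 in every list, beside 82.7% and 95.2% of all pairs. The pair *Brca1/Nbr1* joins the homologous recombination factor BRCA1 with an autophagy receptor (chromosome 11, starts 101551955 and 101552149). Its strongest H3K27ac peak had a fold over H3 of 77.4 in WT, 36.2 in *Ep300Δ/Δ*, 55.4 in *Tet2-/-*, and 69.9 in *Ep300Δ/ΔTet2-/-* cells, and ranked above 99% of its list in each. H3K4me1 was called in none of the 4 lists, and the *Nbr1* start lay under an H3K27ac peak in all 4, whereas the *Brca1* start did so in *Ep300Δ/ΔTet2-/-* cells alone. Folds are set against the H3 library of the same genotype and describe 1 list each.

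*Wrap53/Trp53* joins a telomerase assembly factor with the tumor suppressor p53, from starts 104 bp apart (chromosome 11, 69580255 and 69580359). One H3K27ac peak covered both starts in all 4 lists, with folds of 35.0, 14.6, 15.02, and 14.8 in WT, *Ep300Δ/Δ*, *Tet2-/-*, and *Ep300Δ/ΔTet2-/-* cells. The cover of the window was similar in the 4 lists, 94.1% to 98.2%, and the summit of the peak lay outside the window in each. H3K4me1 was called in *Ep300Δ/ΔTet2-/-* cells alone, over 21.5% of the window. *Mcm4/Prkdc*, a subunit of the replicative helicase and the catalytic subunit of DNA-PK, had folds of 49.4, 31.3, 21.1, and 43.2 in the same order. *Atm/Npat*, the DNA damage kinase and a coactivator of histone genes, had folds of 27.7, 16.3, 28.2, and 8.29. Both had no H3K4me1 call, and in *Atm/Npat* the H3K27ac peaks reached the *Npat* start in all 4 lists and the *Atm* start in none.

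*Mrps12/Sars2*, a protein of the small mitochondrial ribosomal subunit and the mitochondrial seryl-tRNA synthetase, had H3K27ac folds of 37.7, 21.1, 29.1, and 13.2. One peak spanned its starts in WT, *Tet2-/-*, and *Ep300Δ/ΔTet2-/-* cells, and 2 peaks lay there in *Ep300Δ/Δ* cells. *Psmb1/Tbp*, a proteasome subunit and the TATA-binding protein, had weaker peaks, with folds of 12.6, 6.24, 12.2, and 13.3. Its ranks were 78.2, 53.3, 78.0, and 80.1, so only the *Ep300Δ/Δ* list placed it near the middle. The spans of *Mrps12/Sars2* and *Wrap53/Trp53* printed above both carry CCAAT on the minus strand.

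The highest WT H3K27ac folds among pairs, by which they were chosen, were those of *Brca1/Nbr1*, *Atg12/Ap3s1*, and *Utp18/Mbtd1*. *Atg12/Ap3s1*, an autophagy conjugation protein and a subunit of the AP-3 sorting complex, had folds of 76.9, 49.6, 76.4, and 55.9. *Utp18/Mbtd1*, a factor of small ribosomal subunit assembly and an MBT domain protein, had folds of 72.8, 25.8, 48.98, and 55.0. Both ranked above 97% of their list in every genotype and had no H3K4me1 call.

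H3K27ac was called in WT and *Tet2-/-* cells and in neither list after *Ep300* deletion at 3 pairs (0.409%), beside 202 single promoters (1.04%). *Chpf/Tmem198* (chromosome 1, 75479307 and 75479532), whose first gene encodes a chondroitin polymerizing factor, had folds of 7.61 in WT and 6.40 in *Tet2-/-* cells over 23.7% and 20.1% of the window. *Smpd2/Ppil6* (chromosome 10, 41490369 and 41490439), with a neutral sphingomyelinase, had 5.64 and 4.70. *Spaca9/Ak8*, a sperm acrosome protein and an adenylate kinase, had 4.95 and 3.88. All 3 ranked between 13.7 and 57.3 in their lists, and all 3 had H3K4me1 and H3K4me3 in all 4 lists. Chosen by their calls, they are given as a description, and a call just under the threshold counts as absent.

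The mirrored pattern, H3K27ac in both lists after *Ep300* deletion and in neither other list, was found at 2 pairs (0.272%) and 47 single promoters (0.243%). A call in *Ep300Δ/Δ* cells alone was found at 1 more pair (0.136%) and 90 single promoters (0.465%). *Gm27029/Rundc1* had folds of 7.27 in *Ep300Δ/Δ* and 5.78 in *Ep300Δ/ΔTet2-/-* cells. *Tctn3/Entpd1*, a ciliary protein and the ectonucleotidase CD39, had 5.40 and 4.78. *Fam219a/Dnaic1*, with an intermediate chain of axonemal dynein, had 5.19 in *Ep300Δ/Δ* cells alone. The peaks of all 3 ranked between 23.7 and 61.7, and none of the 3 pairs had a change in H3K4me1 or H3K4me3 calls.

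Among the 33 pairs with H3K4me3 and no H3K27ac, those with the highest WT H3K4me3 fold were *Acvr1/Upp2*, *Nt5c3b/Klhl10*, and *Tas1r1/Nol9*. *Acvr1/Upp2* (chromosome 2, 58567157 and 58567298), a BMP receptor and a uridine phosphorylase, had H3K4me3 folds of 57.0, 58.0, 26.5, and 29.4 in WT, *Ep300Δ/Δ*, *Tet2-/-*, and *Ep300Δ/ΔTet2-/-* cells. The last of these folds belongs to a peak with its summit outside the window. Its H3K4me1 calls were in WT, *Tet2-/-*, and *Ep300Δ/ΔTet2-/-* cells, over 11.8%, 11.4%, and 1.14% of the window, from peaks with their summit outside it. *Nt5c3b/Klhl10* (chromosome 11, 100441808 and 100441917), a nucleotidase and a protein of developing sperm, had H3K4me3 folds of 55.2, 57.5, 15.7, and 25.1, over 17.2% to 25.0% of its window. These folds belong to a peak centered outside the window, to the left of it, that reached neither start in any list. *Tas1r1/Nol9*, a taste receptor subunit and a kinase of ribosomal RNA processing, had folds of 53.3, 46.3, 26.0, and 31.6, with H3K4me1 in all 4 lists, and its strongest peak was centered to the right of the window. For comparison, the median H3K4me3 fold of called pairs was 51.8, 43.9, 34.9, and 31.0.

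In 55 pairs the H3K27ac peaks reached only 1 of the 2 starts, the same one in all 4 lists. It was the minus-strand start in 31 and the plus-strand start in 24, and the starts lay a median of 183 bp apart. The strongest were *Fam162a/Ccdc58*, *Mastl/Yme1l1*, and *Dclre1b/Gm43064*, each reached on the plus-strand side. *Fam162a/Ccdc58* had folds of 59.8, 14.1, 44.7, and 76.1 in WT, *Ep300Δ/Δ*, *Tet2-/-*, and *Ep300Δ/ΔTet2-/-* cells. *Mastl/Yme1l1*, a mitotic kinase and a mitochondrial protease, had 56.3, 33.1, 59.8, and 56.0. *Dclre1b/Gm43064*, the telomere nuclease Apollo and a predicted gene, had 50.7, 19.5, 19.6, and 26.5.

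**Figure D5:**
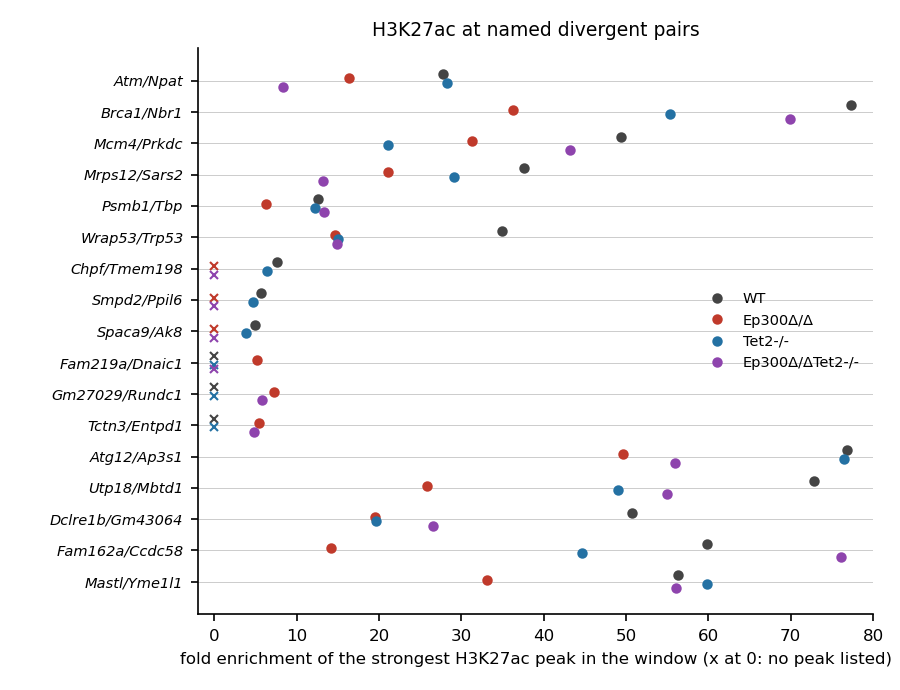
Fold enrichment over H3 of the strongest H3K27ac peak (x axis) at 17 named pairs (y axis) in the 4 genotypes (colored points, 1 library each), with a cross at 0 where the list has no peak. *Chpf/Tmem198*, *Smpd2/Ppil6*, and *Spaca9/Ak8* have crosses in *Ep300Δ/Δ* and *Ep300Δ/ΔTet2-/-* cells, and folds of different lists are not on 1 scale of amount.

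The 29 pairs with no peak of any mark had a median GC content of 52.7% and an observed-to-expected CpG ratio of 0.320, against 62.7% and 0.851 over all pairs. Those with the closest starts were *Best1/Rab3il1* at 36 bp, *Rnf151/Rps2* at 53 bp, and *4930430F08Rik/1700017N19Rik* at 61 bp. *Best1* encodes a channel of the retinal pigment epithelium and *Rnf151* a protein of the testis. *Rps2* encodes a protein of the small ribosomal subunit and has near-identical processed copies elsewhere in the genome, and since only reads of high mapping quality were kept, its empty window is uncertain.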

How the data were processed

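Per the submitters' notes and the methods, the authors used Cutadapt 1.15 for trimming, BWA 0.7.13 for alignment to mm10, and Picard for duplicates. After a mapping quality filter and removal of blacklisted regions, MACS2 2.1.1.20160309 was run on pseudo-replicates with the H3 library as background. Of 20 samples, the 8 of H3 and H3K27me3 were not analysed here. The deposited lists give a score, a fold enrichment (a ratio over H3), −log10 *P* and −log10 *q* values, and the summit offset of each peak. The score was not used. The stated *q* threshold is 0.05, but 0.137% to 7.17% of the peaks of a list lie above it. Labels call the libraries single-end, and the methods paired-end.

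Gene starts came from GENCODE release 21 and sequence from RefSeq GRCm38. Overlaps, shares, and exact Clopper-Pearson intervals were computed with Python 3.11.15, numpy 2.4.6, pandas 2.3.3, scipy 1.17.1, and pysam 0.24.0, and figures with matplotlib 3.10.9. Overlap counts and covered bases equaled those of bedtools 2.31.1 in 200 of 200 simulated windows. The pairs and gene lists were chosen with earlier results of these data known. Named pairs followed a rule: textbook pairs, pairs with a gene of the blood regulators (none was found), up to 5 with H3K27ac lost on both backgrounds by WT fold, up to 3 each gained after *Ep300* deletion, with H3K4me3 without H3K27ac, and with H3K27ac at 1 start, the 3 highest WT H3K27ac folds, and the 3 closest pairs with no mark. Alternatives changed the peak threshold, list length, window, overlap, and comparison promoters.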

Additional observations from a re-analysis of the deposited data

Results flagged for a closer look

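*Tet2* loss went with a move of the median share of the window under H3K27ac, at the 607 pairs called in all 4 lists, that had opposite directions without and with *Ep300* deletion. It went from 81.8% in WT to 80.1% in *Tet2-/-* cells (a difference of -1.77 percentage points) and from 70.9% in *Ep300Δ/Δ* to 72.5% in *Ep300Δ/ΔTet2-/-* cells. At single pairs the window was less covered in 302 and more covered in 247 in the first comparison, and less covered in 229 and more covered in 350 in the second. The median of the differences within pairs was 0 in the first comparison and 1.45 percentage points in the second. Single promoters called in all 4 lists moved the same ways, from 70.1% to 66.1% and from 54.2% to 57.6%. The difference was not tested.

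The number of pairs with H3K4me3 changed by 1 from WT to *Tet2-/-* cells and by -1 from *Ep300Δ/Δ* to *Ep300Δ/ΔTet2-/-* cells. This difference was not tested either.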

How the results depend on the processing

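No paired analysis was possible because each genotype and mark has 1 library and the result comes from no test, and leaving out a replicate was impossible. Peak calls depend on library depth, which the lists do not give, and a region under the threshold counts as absent. Values are given in the order WT, *Ep300Δ/Δ*, *Tet2-/-*, *Ep300Δ/ΔTet2-/-*, and losses in the order WT to *Ep300Δ/Δ* (loss A), *Tet2-/-* to *Ep300Δ/ΔTet2-/-* (B), WT to *Tet2-/-* (C), and *Ep300Δ/Δ* to *Ep300Δ/ΔTet2-/-* (D).

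With −log10 *q* of at least 5, the H3K27ac share in *Ep300Δ/Δ* was 81.2% (single promoters, 31.1%). H3K4me1 shares were 33.8%, 27.8%, 33.8%, and 30.8% (single promoters, 26.8%, 22.3%, 28.4%, and 26.9%). H3K27ac losses were 7.79% (A) and 3.52% (D), against 15.5% and 7.09% of all windows. H3K4me1 losses were 40.3% (A), 33.9% (B), and 30.9% (D), against 37.0%, 29.4%, and 24.3%. Lists of equal size gave H3K27ac shares of 85.6% in WT and 86.0% in *Ep300Δ/Δ* (single promoters, 34.1% and 34.2%). The H3K4me1 share in WT was then 42.1% (single promoters, 34.1%). Only between the starts, shares were 63.9%, 46.6%, 63.6%, and 56.4% for H3K27ac, 8.45%, 8.31%, 7.36%, and 10.1% for H3K4me1, and 93.3%, 93.7%, 92.2%, and 92.0% for H3K4me3. Single promoters within 100 bp of the start stood at 31.2%, 27.02%, 29.9%, and 25.8% for H3K27ac. For H3K4me1 they stood at 19.5%, 18.9%, 16.4%, and 19.05%, above the pairs in all 4 lists. For H3K4me3 they stood at 50.8%, 52.5%, 50.8%, and 50.1%. Their windows have a fixed length, unlike the spans between starts. Losses between the starts were 28.4%, 17.6%, 12.2%, and 8.19% for H3K27ac (all windows, 17.7%, 18.8%, 11.9%, and 14.3%). They were 18.03% for H3K4me1 (D; all windows, 26.9%). For H3K4me3 they were 0.739% (B), 1.31% (C), and 2.03% (D), against 3.35%, 2.64%, and 6.29% of all windows. With at least 200 bp under peaks, H3K4me1 shares were 30.2%, 32.0%, 23.2%, and 30.9% (single promoters, 30.6%, 31.1%, 27.1%, and 31.7%). H3K27ac loss A was 4.01% (all windows, 11.1%).

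The difference between pairs and single promoters in CpG-rich promoters was 27.5, 29.3, 28.1, and 29.9 percentage points for H3K27ac and 10.6, 8.09, 10.4, and 9.88 for H3K4me3. For H3K4me1 it reversed to -8.29, -9.22, -9.93, and -13.4. Within 500 bp of each start the H3K4me1 difference was 3.45, 3.68, -1.59, and 0.0205 percentage points. Another pair of alternatives was chosen after seeing the data. Leaving out pairs that share a gene kept every share and loss within the interval of the value reported, and losses taken within 500 bp of each start stayed within theirs. The causes of these differences were not tested.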
